A study of Mus musculus with 8 samples.

Results

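The clustered histone genes of the mouse are the genes for the linker histone H1 and the core histones H2A, H2B, H3 and H4 that lie together in the genome and whose symbols begin with Hist1h, Hist2h, Hist3h or Hist4h. All genes with such a symbol were taken from the RNA-seq count table, whatever their biotype, which gave 65 of 32567 genes. They comprised 6 H1, 18 H2A, 19 H2B, 10 H3 and 12 H4 genes, of which 62 were annotated as protein coding. The largest cluster, Hist1 on chromosome 13, held 55 of them, Hist2 on chromosome 3 held 6, Hist3 on chromosome 11 held 3 and Hist4 on chromosome 6 held 1.

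RNA was sequenced from mouse embryonic stem cells (ESC) and from retinoic acid-differentiated cells (RA-DIFF), each for a wild-type line and a huntingtin-null line homozygous for the Hdh ex4/5 allele, a targeted inactivation of Htt. For ESC the feeder layer had been withdrawn over 4 passages. For RA-DIFF cells, embryoid bodies were cultured for 8 days with 5 µM retinoic acid present from day 4, dissociated, and collected 2 h after plating. Each of the 4 conditions is 1 library, and each genotype is 1 cell line, so no difference below has a replicate check and none is given a p-value: intervals are exact 95% intervals that cover counting error only, and PCR copies are not independent molecules.

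Most clustered histone genes are expressed in S phase, when new DNA has to be packaged. Their mRNAs are the known exception among animal mRNAs in that they end in a short stem-loop rather than in a poly-A tail; the stem-loop binding protein SLBP and the U7 snRNP guide the cleavage that makes this end. Some of these genes can also give transcripts that run past the stem-loop to a downstream polyadenylation site, a form described in differentiated and non-dividing cells. The libraries were made from poly-A-plus RNA, so what was counted is the RNA of these genes that came through that selection, not their total mRNA, and in such bulk libraries fewer cells making an RNA and less RNA per cell cannot be told apart.

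The stem-loop was searched in the reference sequence as a 16-base hairpin with an exact 6-base stem that opens with GG and a 4-base loop with T at its second base, within 150 bases after the stop codon. It was found in 55 of the 59 members with an annotated stop codon, between 22 and 56 bases past it. The windows below, each the hairpin in capitals with 5 flanking bases on either side (GRCm38, read on the gene's strand), are shown for members on which the counts below turn.
Hist1h1c: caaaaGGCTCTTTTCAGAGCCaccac
Hist3h2ba: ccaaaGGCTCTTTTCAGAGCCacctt
Hist3h2a: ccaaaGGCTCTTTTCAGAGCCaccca
Hist1h2bc: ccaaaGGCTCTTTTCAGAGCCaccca
Hist1h2ap: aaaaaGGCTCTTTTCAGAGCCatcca
Hist1h2af: ccaaaGGCTCTTTTCAGAGCCaccac
Hist1h3e: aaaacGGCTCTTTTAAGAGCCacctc
Hist1h4d: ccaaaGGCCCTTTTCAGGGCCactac
Hist1h4i: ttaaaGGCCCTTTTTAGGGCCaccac
The hairpin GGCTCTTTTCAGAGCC was shared by 34 members of the H1, H2A, H2B and H3 classes, and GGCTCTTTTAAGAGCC by 9. All 11 H4 genes with a hairpin had another stem, GGCCC in 9 and GGTCC in 2. No exact hairpin was matched in Hist2h2be, Hist1h3g, Hist1h2an and Hist1h4a. The hairpin shared by 34 was present in members that were more abundant in RA-DIFF cells, such as Hist1h1c, Hist3h2ba and Hist3h2a, and in members that were less abundant there, such as Hist1h2ap and Hist1h2af.

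The members also differed in how far their annotation runs past the stop codon. By the gene bounds of the count table, 16 members extended more than 200 bases past the stop, from 213 to 7876 bases of genome, and are called long-ended here. Another 43 ended within 154 bases and are called short-ended, 14 of them before the end of the hairpin. For the other 6 no distance was had: 4 have no stop codon in GENCODE vM21, from which the stop codons were taken, and 2 (Hist1h2bh and Hist1h2bm) were not matched there by gene ID. This limit was chosen after the values had been seen, so the values by annotated end below are a description. Long-ended members are H1 in 1 case (Hist1h1c), H2A in 1 (Hist3h2a), H2B in 7, H3 in 3 and H4 in 4.

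The libraries held between 63617410 and 110569127 counts, and 3 counts correspond to 0.0268 to 0.0460 CPM (counts scaled to the TMM-adjusted library total). Htt, the targeted gene, had 14385 counts (165.9 CPM) in wild-type and 7260 (111.3 CPM) in Htt-null ESC, but 8212 (73.3 CPM) in the library of RA-DIFF cells labelled wild type and 9722 (98.7 CPM) in the one labelled Htt-null. The higher level thus went against the label in RA-DIFF cells. As the Htt-null ESC library also held many Htt counts, the Htt count alone does not tell the genotype. The RA-DIFF libraries are named by their labels throughout. All 10 pluripotency markers, such as Pou5f1 and Nanog, were lower by more than 0.75 on the log2 scale in RA-DIFF than in ESC libraries, and 9 of 10 neural markers were higher, in both pairs of libraries. The 12 fibroblast and mesenchyme markers summed to 137.0 CPM in wild-type and 119.3 CPM in Htt-null ESC, 2381 CPM in the library of RA-DIFF cells labelled wild type and 5524 CPM in the one labelled Htt-null.

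Histone genes made up a very small part of each library. Their summed counts were 6812 in wild-type and 4468 in Htt-null ESC, and 6677 and 4844 in the RA-DIFF libraries labelled wild type and Htt-null. Scaled, this was 78.6 CPM (76.7 to 80.4) and 68.5 CPM (66.5 to 70.5) in ESC, and 59.6 CPM (58.2 to 61.0) and 49.2 CPM (47.8 to 50.6) in RA-DIFF cells. Their share of all counts was 0.00775%, 0.00702%, 0.00604% and 0.0048%, in the same order. For comparison, 12 replication-independent and variant histone genes outside the clusters, whose mRNAs are mostly polyadenylated, summed to 2137, 1904, 2990 and 2596 CPM. Only 14 of the 65 members passed the expression limit of the study (mean log2 CPM above 0), among them no H3 gene, while 6 members (Hist1h2ao, Hist1h2ba, Hist1h2bq, Hist1h2br, Hist2h2ab and Hist3h2bb-ps) had at most 3 counts in every library.

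**Figure D1:**
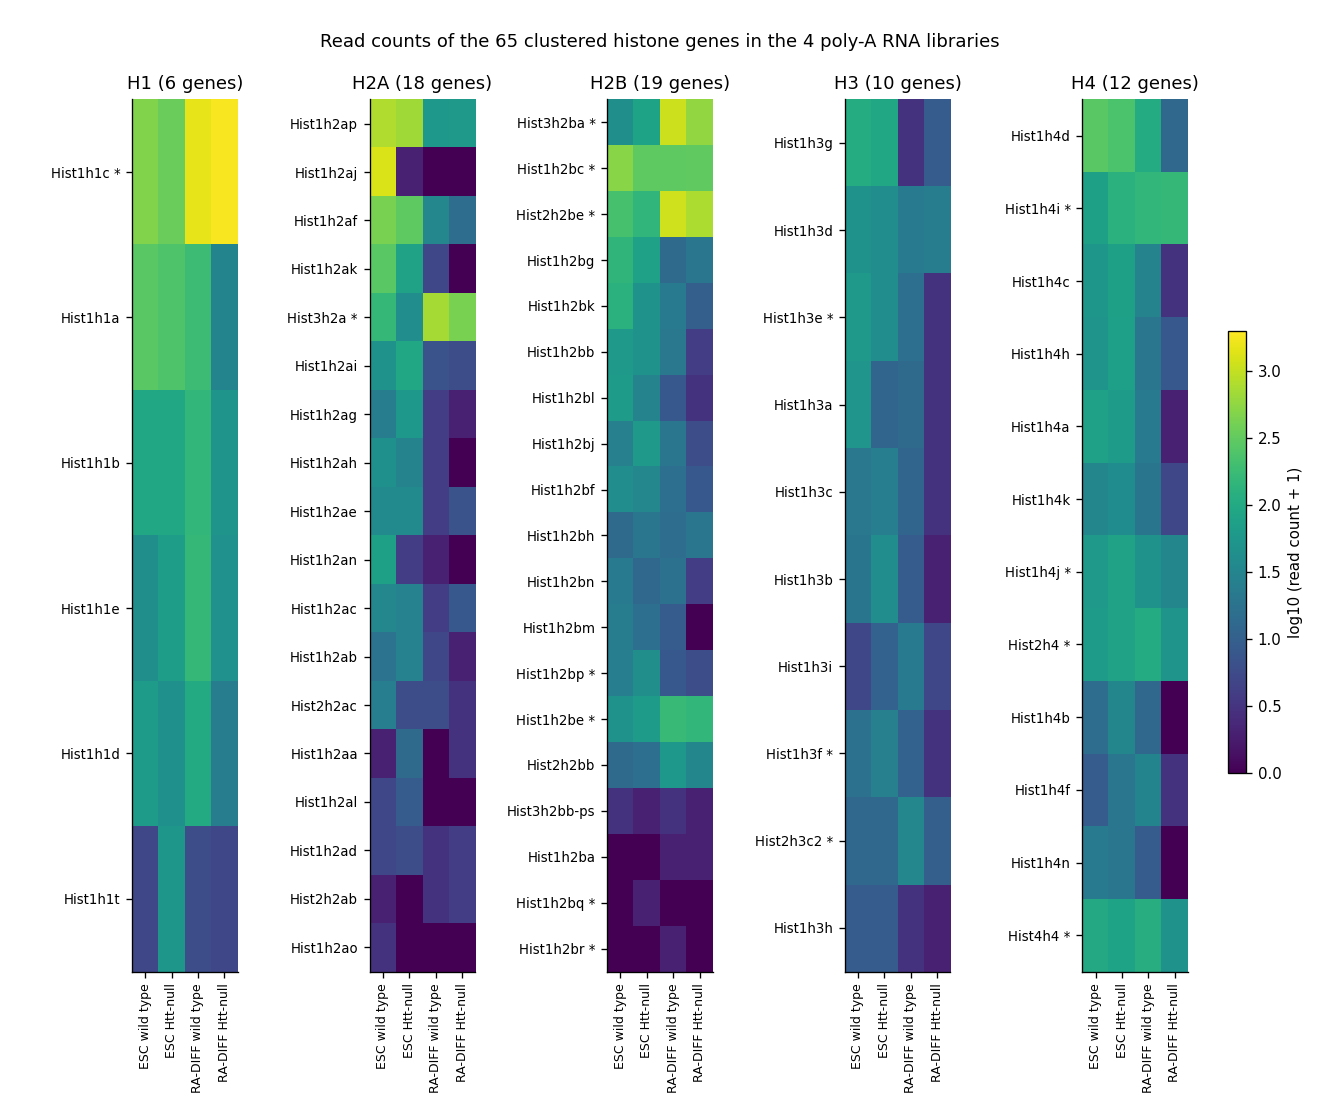
Read counts of the 65 clustered histone genes (rows, by class and in order of mean CPM per kb; * marks long-ended members) in the 4 poly-A RNA libraries (columns, by their labels), as log10 (count + 1). The yellow fields in RA-DIFF columns are few and mostly long-ended genes such as Hist1h1c (1520 and 1855 counts), while most H2A, H3 and H4 rows darken from the ESC to the RA-DIFF columns.

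Per length, the most abundant members differed between the stages, except that Hist1h2bc, an H2B gene, stood high at both. In wild-type ESC the pseudogene Hist1h2aj, described below, had the highest level with 42.6 CPM per kb of exon. It was followed by the H2A genes Hist1h2ap with 19.3, Hist1h2af with 12.4 and Hist1h2ak with 8.33, and by Hist1h4d with 8.27 and Hist1h2bc with 8.04. In Htt-null ESC Hist1h2ap, Hist1h2af, Hist1h4d and Hist1h2bc stood highest, at 21.3, 11.5, 8.93 and 6.35 CPM per kb, while Hist1h2ak stood at 3.04 and Hist1h2aj at 0.0436. For RA-DIFF cells labelled wild type Hist3h2ba, an H2B gene, stood highest with 16.1 CPM per kb, followed by Hist1h1c with 8.70, Hist2h2be with 3.90 and Hist1h2bc with 3.61. In the one labelled Htt-null Hist1h1c stood highest with 12.1 CPM per kb, and Hist3h2ba followed with 9.54 and Hist1h2bc with 4.26. The same 5 genes, Hist1h1c, Hist2h2be, Hist3h2ba, Hist3h2a and Hist1h2bc, held 71.6% and 81.8% of all histone counts in the RA-DIFF libraries labelled wild type and Htt-null.

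The comparison of RA-DIFF with ESC libraries asks which histone genes accompany differentiation. Fold changes of single genes are log2 ratios of CPM with a prior count of 2, while their intervals are computed on the counts without it. A member was counted as higher or lower when the ratio passed 0.75 in either direction, the fold limit of the study. The study also required p below 0.05 in edgeR at an assumed dispersion of 0.1, which was not applied to these counts of members. Between the libraries labelled wild type, of the 14 members past the expression limit 5 were higher and 7 lower, where 33.9% and 26.1% of all 15492 genes past the limit were higher and lower. Between the libraries labelled Htt-null 4 were higher and 7 lower, where 34.3% and 24.8% of all genes were, but 1 of the 7, Hist1h2aj, had only 1 and 0 counts there, which leaves 6. Since few members pass that limit, and some only through the stage where they are high, members with more than 3 counts in either library were counted as well. Of 58 such members, 10 were higher and 37 lower between the libraries labelled wild type, against 35.5% and 30.7% of all 26338 genes with as many counts. Of 57, 4 were higher and 48 lower between the libraries labelled Htt-null, against 33.8% and 31.9% of all 25963 genes. The median ratio of the members was -1.39 and -2.71 in the 2 comparisons (-1.26 and -2.71 with members at 0 in 1 library set to the bound that 3 counts give), beside 0.09 and 0.06 over all genes.

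The classes did not move alike. H1 counts summed to 11.01 and 13.14 CPM in wild-type and Htt-null ESC and to 18.9 and 20.4 CPM in the RA-DIFF libraries labelled wild type and Htt-null, higher by 0.78 (0.67 to 0.89) and 0.63 (0.52 to 0.75) on the log2 scale. Gene by gene, however, 2 H1 members were higher and 1 lower between the libraries labelled wild type, and 1 higher and 5 lower between those labelled Htt-null, with medians of 0.32 and -1.46. Of all genes with more than 3 counts in either library, 35.5% and 33.8% were higher and 30.7% and 31.9% lower in these comparisons. H2B sums were also higher, 15.99 and 15.27 CPM in ESC and 26.1 and 19.6 CPM in RA-DIFF cells, although most H2B members went the other way. Of 15 counted, 4 were higher and 8 lower between the libraries labelled wild type (median -1.15), and 2 higher and 9 lower between those labelled Htt-null (median -2.48), so the higher sum rested on few genes. H2A sums went the other way, from 37.9 and 21.3 CPM in ESC to 7.44 and 5.47 CPM in RA-DIFF cells, lower by log2 ratios of -2.35 (-2.46 to -2.24) and -1.96 (-2.11 to -1.82). H3 and H4 were lower as well: H3 summed to 4.01, 4.74, 1.22 and 0.548 CPM and H4 to 9.63, 14.03, 5.93 and 3.17 CPM over wild-type ESC, Htt-null ESC and the RA-DIFF libraries labelled wild type and Htt-null. A single member carries much of the first H2A ratio, since without the pseudogene Hist1h2aj, described below, it was -1.62 (-1.74 to -1.5).

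By annotated end, the summed counts moved in opposite directions. Long-ended members summed to 21.4 and 22.6 CPM in wild-type and Htt-null ESC and to 48.5 and 44.9 CPM in the RA-DIFF libraries labelled wild type and Htt-null. Short-ended members summed to 41.6 and 45.0 CPM in ESC, but to 10.4 CPM (9.77 to 10.97) and 3.79 CPM (3.41 to 4.19) in the same RA-DIFF libraries. The long-ended share of histone counts was therefore 27.2% and 33.1% in ESC and 81.4% and 91.2% in RA-DIFF cells. The higher long-ended sum rested on few genes. In RA-DIFF libraries Hist1h1c, Hist2h2be, Hist3h2ba, Hist3h2a and Hist1h2bc alone held 71.6% and 81.8% of all histone counts. Gene by gene, 33 of the 38 short-ended members with more than 3 counts in both comparisons were below 0 in both, and none was above 0 in both. Of 14 long-ended members 6 were below 0 in both and 5 above 0 in both. The medians over short-ended members were -1.67 and -3.46 (-3.31 with members at 0 set to their bound), and over long-ended members 0.49 and -0.72, between the libraries labelled wild type and Htt-null.

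**Figure D2:**
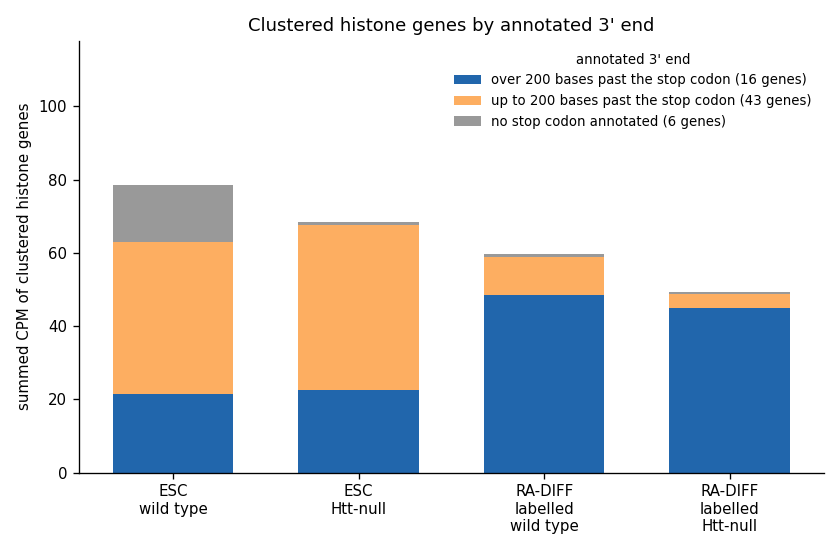
Summed CPM of clustered histone genes in each library (bars), split by how far the annotation runs past the stop codon. In RA-DIFF libraries the long-ended part is mostly Hist1h1c, Hist2h2be, Hist3h2ba and Hist3h2a. The blue part, 16 long-ended genes, is 21.4 and 22.6 CPM in ESC and 48.5 and 44.9 CPM in RA-DIFF libraries, and the orange part, 43 short-ended genes, is 41.6, 45.0, 10.4 and 3.79 CPM; the grey part in wild-type ESC is almost all Hist1h2aj.

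The annotated end is related to how well reads can be placed. Many histone genes of a class are near-identical copies, and only 42.0% of the 50-base windows of a member's exons, in the median, occurred once in the genome. The median was 71.2% for long-ended and 38% for short-ended members, 95.7% for H1 and 26% for H2A. Among members with at least 50% unique windows the same order of the groups was seen. The 10 long-ended ones were higher in RA-DIFF cells by 1.65 (1.56 to 1.74) and 1.31 (1.22 to 1.41) in their summed counts, and the 16 short-ended ones lower, at -0.75 (-0.88 to -0.62) and -3.05 (-3.28 to -2.83), for the libraries labelled wild type and Htt-null. Over all members the summed ratios were -0.40 and -0.48, but over the 28 with at least 50% unique windows they were 0.97 and 0.41, so the direction of the total depends on which members are summed.

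Among the H1 genes, which encode the linker histone that binds DNA between nucleosomes, Hist1h1c (ENSMUSG00000036181, chr13:23738808-23740367, plus strand, 1 exon that runs 880 bases past the stop) had 465 counts in wild-type ESC, 350 in Htt-null ESC, 1520 in the library of RA-DIFF cells labelled wild type and 1855 in the one labelled Htt-null. Both RA-DIFF libraries lay well above both ESC libraries, by 1.34 (1.19 to 1.49) and 1.81 (1.65 to 1.98). Hist1h1a, whose annotation stops at the stop codon, had 286 and 248 counts in ESC and 182 and 30 in RA-DIFF cells. It was thus lower in both pairs, by ratios of -1.01 (counts alone -1.30 to -0.75) and -3.55 (-4.24 to -3.09). Hist1h1b, the third H1 gene by level, had 91, 93, 151 and 50 counts, which is 0.35 between the libraries labelled wild type and -1.45 between those labelled Htt-null, so its direction differed between them. The other H1 genes expressed in somatic cells, Hist1h1d and Hist1h1e, also had their highest count in the library of RA-DIFF cells labelled wild type (104 and 156) and their ratio was positive there (0.28 and 1.45) and negative between the libraries labelled Htt-null (-1.48 and -1.10). The testis-specific Hist1h1t had 54 counts in Htt-null ESC and 4 or 5 in every other library.

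The H2A genes, whose products pair with H2B in the nucleosome, were lower in RA-DIFF libraries with 1 exception among those counted. Hist1h2ap (chr13:21833026-21833507, minus strand) had 808 and 669 counts in wild-type and Htt-null ESC and 57 and 58 in the RA-DIFF libraries labelled wild type and Htt-null, a ratio of -4.14 and -4.07. No 50-base window of its exon is unique in the genome, so its counts cannot be assigned to this copy with certainty. Hist1h2af, at chr13:23533906-23534304, had 430, 299, 33 and 14 counts, with 20.29% of its windows unique. Hist1h2ak had 284, 78, 4 and 0 counts. For the pair labelled Htt-null the exact interval of its ratio reached up to -4.96. With its 0 set to 3 counts it was 39.25-fold lower in RA-DIFF cells than in ESC for that pair.

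The exception was Hist3h2a (ENSMUSG00000078851, chr11:58954685-58956830, plus strand), the long-ended H2A gene. It had 155 and 40 counts in wild-type and Htt-null ESC and 708 and 437 in the RA-DIFF libraries, ratios of 1.81 (1.57 to 2.08) and 2.81 (2.39 to 3.36). In GENCODE its exon overlaps that of Trim17 on the same strand, and reads in the overlap are not counted for either gene in the counting mode used. Over the class, 14 of 15 H2A members with more than 3 counts were lower and Hist3h2a alone was higher between the libraries labelled wild type, and 13 of 14 were lower between those labelled Htt-null. Of all genes with as many counts, 30.7% and 31.9% were lower and 35.5% and 33.8% higher in these comparisons.

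Hist1h2aj, an unprocessed pseudogene of H2A at chr13:21721457-21721808 on the minus strand, had 1300 counts in wild-type ESC, 1 in Htt-null ESC and none in either RA-DIFF library. It was the most counted member of the wild-type ESC library, with 19.1% of its histone counts. Between the libraries labelled wild type the exact interval of its log2 ratio reached up to -8.83. With its 0 set to 3 counts it was 560.0-fold lower in RA-DIFF cells of that label. Only 6.93% of its windows are unique, and in GENCODE its exon also overlaps a gene on the other strand. The related H2A gene Hist1h2an, named here after its values were seen, had 73 counts in wild-type ESC and 3, 1 and 0 in the others.

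Of the 15 counted H2B genes, 4 were higher in RA-DIFF cells between the libraries labelled wild type and 2 between those labelled Htt-null, shares below the 35.5% and 33.8% of all genes with as many counts. Hist2h2be (ENSMUSG00000068854, chr3:96221119-96223738, plus strand, 2192 bases past the stop) had 220 and 148 counts in wild-type and Htt-null ESC and 1144 and 786 in the RA-DIFF libraries labelled wild type and Htt-null. Its ratios were 2.00 (1.80 to 2.22) and 1.80 (1.56 to 2.08), and nearly all of its sequence is unique (99.22% of windows). Hist3h2ba (ENSMUSG00000056895, chr11:58948920-58949533, plus strand) had 43, 81, 1109 and 577 counts in the same order, ratios of 4.26 (3.88 to 4.79) and 2.22 (1.90 to 2.59), the first being the largest increase of any member. Hist1h2bc, which has a second exon downstream and spans chr13:23684199-23692488, did not follow them. Its counts were 513, 305, 298 and 309, which gave ratios of -1.15 and -0.57. Of the short-ended H2B genes, 7 had more than 3 counts, and all 7 were below 0 in both comparisons, with medians of -1.83 and -2.71.

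H2A and H2B genes often start back to back and share the DNA between them. There were 14 such pairs on opposite strands, with 173 to 306 bases between the starts. In 5 of them a short-ended H2A gene faces a long-ended H2B gene, and the pair of the Hist2 cluster shows how unequal the 2 sides could be. Hist2h2ac had 25 and 5 counts in ESC and 5 and 2 in RA-DIFF cells, while its partner Hist2h2be, 239 bases away, had 220, 148, 1144 and 786. In the pair of Hist1h2ac and Hist1h2bc the H2A gene had 33 and 28 counts in ESC and 3 and 7 in RA-DIFF cells, beside 513, 305, 298 and 309 for the H2B gene. Among pairs with more than 3 counts on both sides, the H2A ratio was below the H2B ratio in 7 of 10 between the libraries labelled wild type and in 7 of 8 between those labelled Htt-null.

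H3 and H4 genes, whose products form the core of the nucleosome, differed in level. H3 genes had the lowest sum of the classes in every library, while the H4 sum in Htt-null ESC, 14.03 CPM, was close to that of H1 and H2B. The 3 most abundant H3 genes per length were Hist1h3g with 110 and 95 counts in ESC and 2 and 8 in RA-DIFF cells, Hist1h3d with 49, 40, 21 and 23, and Hist1h3e with 59, 41, 15 and 2. All 3 were lower in RA-DIFF libraries, and over the class 8 of 10 were lower between the libraries labelled wild type and 10 of 10 between those labelled Htt-null, beside 30.7% and 31.9% of all genes with as many counts. Hist1h3e is long-ended by the annotation and nevertheless was lower, with ratios of -2.17 and -3.94. Among H4 genes, Hist1h4d (chr13:23581598-23581990) had 282 and 229 counts in ESC, 107 in the library of RA-DIFF cells labelled wild type and 12 in the one labelled Htt-null, and Hist1h4c had 55, 75, 29 and 2. The long-ended Hist1h4i had 75 and 127 counts in ESC and 152 and 155 in RA-DIFF cells, ratios of 0.64 (0.24 to 1.07) and -0.30 (-0.65 to 0.04). Hist4h4, alone on chromosome 6 at chr6:136801553-136804431, had 97, 81, 114 and 47 counts, close to even between the libraries labelled wild type at -0.13 (-0.54 to 0.27) and at -1.34 between the others.

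**Figure D3:**
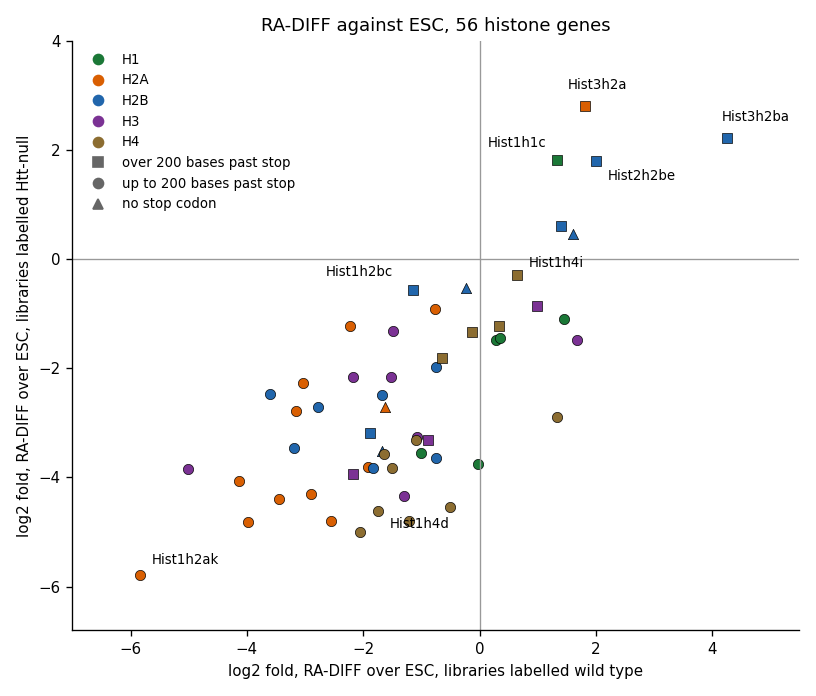
Log2 ratio of RA-DIFF over ESC for the 56 histone genes with more than 3 counts in both comparisons, between the libraries labelled wild type (x axis) and Htt-null (y axis), with colour by class and shape by annotated end. The points at the upper right, above 0 in both, are led by Hist3h2ba, Hist3h2a, Hist2h2be and Hist1h1c, and no short-ended gene (circle) is among them.

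By cluster, summed counts of Hist2 and Hist3 were higher in RA-DIFF cells and those of Hist1 were lower. Hist1 sums were 71.3 and 61.4 CPM in ESC and 30.3 and 29.5 CPM in RA-DIFF cells. Hist2 sums were 3.86 and 3.97 CPM in ESC and 12 and 8.96 CPM in RA-DIFF cells, and those of Hist3 2.31 and 1.87 CPM in ESC and 16.2 and 10.3 CPM in RA-DIFF cells. Hist4, with its 1 gene, stood at 1.12 and 1.24 CPM in ESC and 1.02 and 0.477 CPM in RA-DIFF cells. Of 5 counted Hist2 members, 3 were higher and 1 lower between the libraries labelled wild type, but 1 higher and 3 lower between those labelled Htt-null. The shares of all genes with as many counts were 35.5% higher and 30.7% lower, and 33.8% and 31.9%, in the same order. The higher sums rested on few genes, Hist2h2be in Hist2 and Hist3h2a and Hist3h2ba in Hist3, and the pseudogene Hist3h2bb-ps of the latter had 1 or 2 counts in every library. Within Hist1 the members fall into blocks at chr13:21715763-22043676 with 23 genes and chr13:23531050-23934851 with 31, beside Hist1h2al alone at chr13:51202688-51203065. The medians of the 2 blocks were alike, -1.78 and -1.30 between the libraries labelled wild type and -3.38 and -3.07 between those labelled Htt-null.

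The genotype comparison in ESC asks what loss of huntingtin does to these genes in the stem cell state. Summed counts were lower in Htt-null than in wild-type ESC by a log2 ratio of -0.20 (-0.25 to -0.14), but this rested on Hist1h2aj. Without it, 68.5 CPM stood against 63.6 CPM and the ratio was 0.11 (0.05 to 0.16). Of the 14 members past the expression limit 3 were higher and 3 lower, where 5.14% and 3.47% of all genes were. The 3 higher ones were Hist3h2ba with 43 counts in wild-type and 81 in Htt-null ESC, Hist1h4i with 75 and 127, and Hist1h2be with 49 and 66. The 3 lower ones were Hist1h2aj, Hist1h2ak with 284 and 78 counts, and Hist3h2a with 155 and 40, all H2A genes. Of 59 members with more than 3 counts 21 were higher and 7 lower, where 14.2% and 9.88% of 24643 genes were, and their median was 0.34 beside -0.00 over all genes. All 12 H4 members were above 0, from 0.11 to 1.48, and their summed level was 9.63 CPM in wild-type and 14.03 CPM in Htt-null ESC, a ratio of 0.54 (0.41 to 0.68). Long-ended and short-ended members had summed ratios of 0.08 (-0.02 to 0.18) and 0.11 (0.04 to 0.18) and medians of 0.53 and 0.22, with 6 of 14 and 13 of 40 counted members higher.

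In RA-DIFF cells the direction of a genotype difference depends on labels that the Htt counts went against, and all signs given here by the labels turn if they are exchanged. By the labels, 11 of 12 fibroblast and mesenchyme markers were higher and 7 of 10 neural markers lower for Htt-null. The study reported the reverse after Htt loss: extracellular matrix genes mostly lower, and most neuron-specific genes that changed higher. Whether the labels are exchanged was not tested. As labelled, the sum of counts was lower for the Htt-null label, by a ratio of -0.28 (-0.33 to -0.22). Of the 14 members past the expression limit none was higher and 6 were lower, where 11.7% and 8.99% of all genes were. The 6 were Hist1h4d at -2.76, Hist1h1a at -2.33, Hist1h2ak at -1.39, Hist1h1b at -1.37, Hist1h2af at -0.95 and Hist3h2ba at -0.75, and 5 of them are short-ended. Of these Hist1h4d, Hist1h2af and Hist1h2ak were below 1 CPM in both RA-DIFF libraries and passed the expression limit through their ESC counts. Hist1h2ak had only 4 and 0 counts, so that its ratio depends on the prior count. With its 0 set to 3 counts it was 1.17-fold lower. The exact interval of its ratio reached up to 0.79, so a higher level is not excluded. Of 51 members with more than 3 counts 3 were higher and 31 lower, where 14.5% and 15.1% of 25128 genes were, with a median of -1.0 (-0.95 with members at 0 set to their bound) beside -0.04 over all genes. The difference lay mostly in short-ended members, which summed to 1161 counts in the library labelled wild type and 373 in the one labelled Htt-null, a ratio of -1.45 (-1.62 to -1.28), against -0.11 (-0.17 to -0.05) for long-ended members. The 8 short-ended H4 genes, with 245 against 28 counts in all, were all lower, and Hist1h1c was higher, at 0.47 (0.38 to 0.57).

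**Figure D4:**
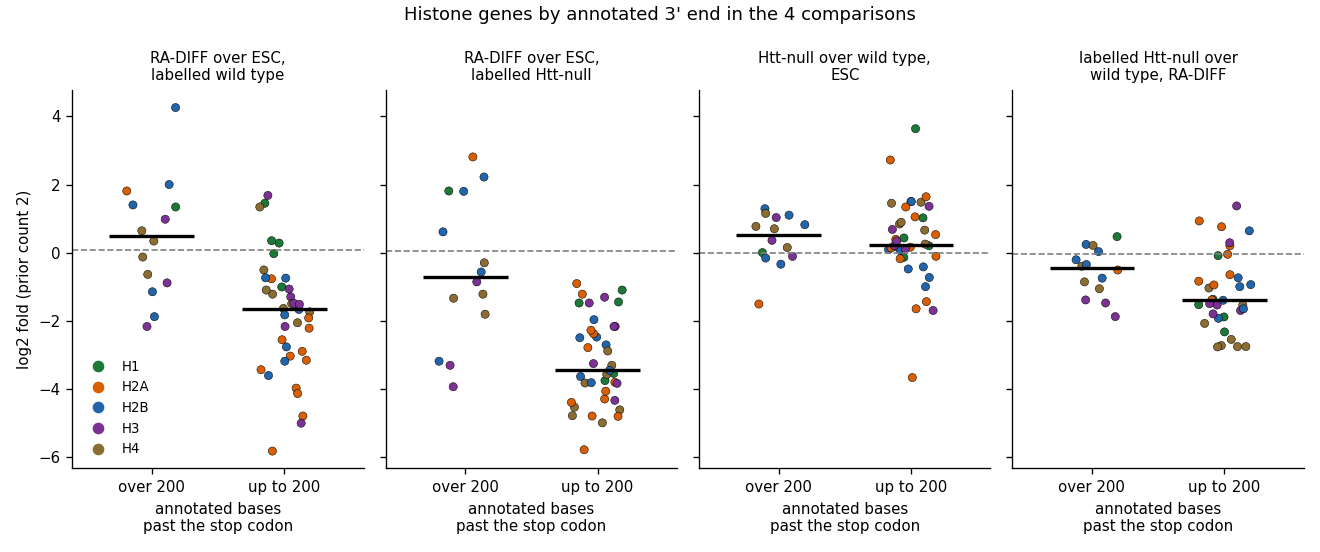
Log2 ratios of histone genes with more than 3 counts in either library (points, coloured by class), by annotated end, in each of the 4 comparisons; thick lines are medians over the points and dashed lines medians over all genes with as many counts. Short-ended genes lie low in both stage comparisons (medians -1.67 and -3.46) and in the RA-DIFF genotype comparison, and around 0 between the ESC libraries.

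RNAs that carry no poly-A tail differed between the same libraries and are given beside these values. Rn7sk, the 7SK RNA that restrains transcription elongation, had 114, 152, 803 and 36 counts in wild-type ESC, Htt-null ESC and the RA-DIFF libraries labelled wild type and Htt-null. Rpph1, the RNA of RNase P, had 41, 163, 380 and 19, and Rmrp, the RNA of RNase MRP, 105, 153, 176 and 1. All 3 were lowest in the library of RA-DIFF cells labelled Htt-null, which also had the fewest short-ended histone counts, but in the library of RA-DIFF cells labelled wild type their CPM was higher than in wild-type ESC, while that of short-ended histone genes was lower. The rest of the list was divided: Terc, the RNA of telomerase, had 150, 147, 4 and 0 counts and Scarna2, a guide RNA of the Cajal body, 59, 56, 25 and 11, both lower in RA-DIFF libraries. Scarna13 was higher there, with 9, 7, 66 and 22. Without Malat1, whose end is held by a triple helix and which stood between 845.3 and 991.6 CPM, the 10 such RNAs in the table summed to 5.66, 10.6, 13.1 and 1.00 CPM. How much a difference in poly-A selection contributes to the histone values was not tested.

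**Figure D5:**
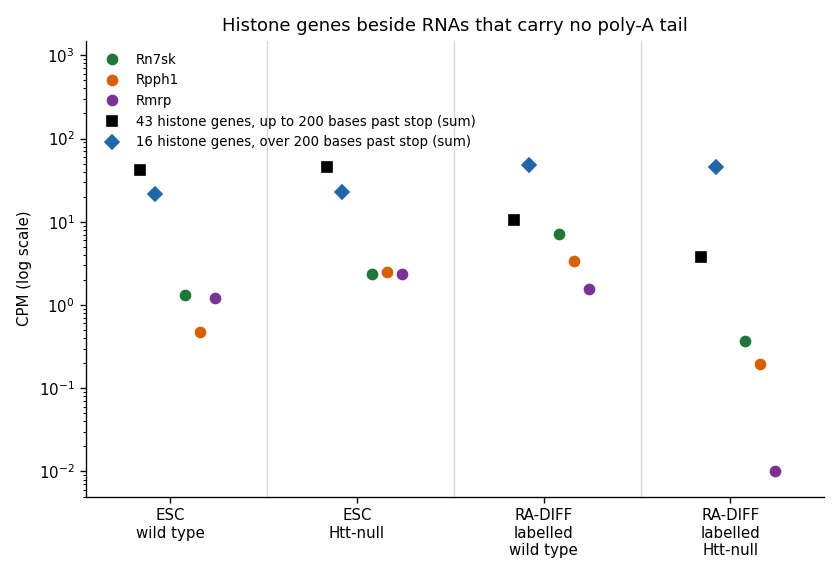
CPM on a log axis of 3 RNAs without a poly-A tail (circles) and the summed CPM of short-ended (black squares) and long-ended (blue diamonds) histone genes in each library. The 3 RNAs and the short-ended sum are lowest in the library of RA-DIFF cells labelled Htt-null, at 0.366, 0.193, 0.0102 and 3.79 CPM, while the long-ended sum there is 44.9 CPM.

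The machinery that makes and protects the stem-loop end was mostly even between libraries. Of 20 genes for histone pre-mRNA processing and histone mRNA stability, all past the expression limit, 4 were lower and none higher in RA-DIFF than in ESC libraries labelled wild type (median -0.01), and 3 were lower and none higher between those labelled Htt-null (median -0.30). Of all genes past the limit 33.9% and 34.3% were higher and 26.1% and 24.8% lower in these comparisons. Slbp, which encodes the stem-loop binding protein and is named here for that role, stood at 131.3, 111.3, 129.0 and 108.5 CPM. The lower ones were Zfp473, a zinc finger protein of the U7-dependent complex, at -3.52 and -3.51, Mif4gd, an SLBP partner, at -1.89 and -2.19, the cleavage endonuclease gene Cpsf3 at -1.0 in both, and, only between the libraries labelled wild type, Npat, the coactivator of histone gene transcription, at -0.90 beside -0.46. None of the 20 passed 0.75 between genotypes at either stage, where 5.14% and 3.47% of all genes were higher and lower in ESC and 11.7% and 8.99% in RA-DIFF cells. Of 12 genes for the negative elongation factor and for cleavage and polyadenylation, 2 were higher and 1 lower between the libraries labelled wild type and 1 higher and 1 lower between those labelled Htt-null (medians 0.09 and 0.06), and none passed 0.75 between genotypes, beside the same shares of all genes.

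Genes of DNA replication and proliferation were more often lower than higher in RA-DIFF libraries. Of 21 such genes, 9 were lower, 11 between the limits and 1 (Ccne2, at 0.92 and 1.37) higher in each stage comparison. Of all genes past the expression limit 26.1% and 24.8% were lower and 33.9% and 34.3% higher. Their ratios had medians of -0.63 and -0.14 beside 0.12 and 0.17 over all genes past the limit. Top2a, a topoisomerase of dividing cells, was at -1.12 and -1.02, the helicase subunit genes Mcm3 and Mcm6 at -1.02 and -1.06 each, and Mki67, the proliferation marker, at 0.12 and 0.60. None of the 21 differed by more than 0.75 between genotypes, beside 5.14% and 3.47% of all genes higher and lower in ESC and 11.7% and 8.99% in RA-DIFF cells, where the median of the list was 0.01. Of 10 histone chaperone genes, 2 were lower between the libraries labelled wild type and 1 between those labelled Htt-null and none was higher in either, beside 26.1% and 24.8% of all genes lower and 33.9% and 34.3% higher. They were Npm1 at -1.24 and -1.79 and Hjurp at -0.96 and -0.59. The 12 fibroblast and mesenchyme markers summed to more in the library of RA-DIFF cells labelled Htt-null than in the one labelled wild type and the 10 neural markers to less (2261 against 3570 CPM), and the part of this difference in the histone values was not tested.

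Histone genes outside the clusters were far more abundant, and 6 of the 11 past the expression limit were higher and 3 lower between the libraries labelled wild type, 4 and 4 between those labelled Htt-null (medians 1.05 and 0.49). The shares of all genes were 33.9% higher and 26.1% lower, and 34.3% and 24.8%, in the same order. H3f3b, a gene of the replication-independent H3 variant, was even, at 0.10 and 0.40. H2afz and H2afy, genes of H2A variants, were at 1.11 and 0.54 and at 1.88 and 1.34. H2afx, whose gene can end in either a stem-loop or a poly-A tail, was lower, at -1.67 and -0.99. Between genotypes none of the 11 passed 0.75 at either stage, beside 5.14% and 3.47% of all genes higher and lower in ESC and 11.7% and 8.99% in RA-DIFF cells.

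The promoters of the members share sequence motifs. RefSeq promoters (GRCm38.p6, 250 bases before to 50 after the start) were matched for 57 members, 58 promoters in all. The TATA-box letters TATAAA were present on either strand in 56.9% of them against 13.62% of all 32851 promoters, CCAAT, the letters bound by NF-Y, in 86.21% against 37.41%, the octamer ATGCAAAT in 24.14% against 1.74%, and TTTCGCGC, letters of an E2F site, in 15.52% against 0.32%. The octamer was found in 7 of 16 H2A and 7 of 17 H2B promoters and in no H1, H3 or H4 promoter, and CCAAT in 3 of 11 H4 promoters and in all others. H2A and H2B genes that start back to back share promoter DNA, so the same site can be counted for both genes. These counts and percentages are therefore not counts of separate sites. The 150 bases before the start are shown for both long-ended genes of Hist3 and for Hist1h2af, with these motifs in capitals; the positions are chr11:58948761-58948910, chr11:58954535-58954684 and chr13:23533725-23533874, all on the plus strand.
Hist3h2ba: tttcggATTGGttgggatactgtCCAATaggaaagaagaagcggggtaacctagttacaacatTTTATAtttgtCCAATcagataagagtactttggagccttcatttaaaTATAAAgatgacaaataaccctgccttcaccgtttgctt
Hist3h2a: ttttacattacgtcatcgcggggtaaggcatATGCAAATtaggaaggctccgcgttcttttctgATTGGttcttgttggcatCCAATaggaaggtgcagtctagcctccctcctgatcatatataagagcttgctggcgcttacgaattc
Hist1h2af: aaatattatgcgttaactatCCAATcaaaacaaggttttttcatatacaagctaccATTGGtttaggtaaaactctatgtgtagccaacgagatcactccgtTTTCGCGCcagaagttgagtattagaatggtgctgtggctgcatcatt
Members with and without a motif were both lower in the median. With the octamer the stage medians were -2.07 and -2.48, without it -1.10 and -3.28, and with TTTCGCGC they were -2.56 and -3.42, without it -1.16 and -2.79, for the libraries labelled wild type and Htt-null.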

How the data were processed

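The 4 RNA-seq libraries (1 per condition) were analysed, and the 4 small RNA libraries of the series were not used here. The authors aligned 50 bp read pairs to GRCm38.p4 with TopHat2 2.0.14, guided by GENCODE M6, counted them on genes with HTSeq 0.6.1 in intersection-nonempty mode and deposited raw counts; default settings are stated for all programs unless otherwise given, which in HTSeq means counting by strand, and no strand option is named. The kit marks strand by dUTP, for which that default would count the strand opposite to the gene; Pou5f1 had 65651 counts in wild-type ESC, and the option used is not given in the sources used here. Exons of 20 members overlap a gene on the opposite strand, and how such reads were assigned was not checked. Reads with several best places cannot be assigned to 1 copy.

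TMM factors over the 4 libraries and log2 CPM with a prior count of 2 were computed with edgeR 4.0.16 in R 4.3.3; Python 3.11.15, pandas 2.3.3, scipy 1.17.1 and matplotlib 3.10.9 did the rest. With 1 library per condition no test was used for the values reported; the exact test of edgeR at an assumed dispersion was tried as an alternative. A gene was counted as higher or lower past 0.75 log2, in place of a test, among genes with mean log2 CPM above 0 or with more than 3 counts in either library. Ratios of counts carry exact conditional 95% intervals, computed without the prior count, and sums exact Poisson intervals. Members, lists and limits were chosen with earlier results of these data known. Genes named are Htt, the 3 members per class with the highest CPM per kb, the 3 largest increases and decreases per comparison among members past the expression limit with at least 100 counts, non-coding members with at least 100 counts, members of Hist3 and Hist4, and up to 4 genes per list by mean CPM; others are named as singled out after their values were seen: Hist1h1d, Hist1h1e, Hist1h1t, Hist1h2an, Hist1h2be, the Hist2h2ac and Hist1h2ac pairs, Slbp, Npat, Zfp473, Mif4gd, Ccne2, Pou5f1, Terc, Scarna2 and Scarna13.

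Gene bounds, and so annotated ends, are those of the deposited count table. Stop codons, overlaps and exons within these bounds are from GENCODE vM21, a later release than M6 that held 63 of the 65 gene IDs, and sequences from RefSeq, all on GRCm38; distances past the stop are along the genome. The calling step was tested on simulated data. Alternatives were other scalings, filters, prior counts, an assumed dispersion, members that are coding or have unique sequence, exchanged labels, and leaving out Hist1h2aj, the last chosen after seeing the data.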

Additional observations from a re-analysis of the deposited data

Results flagged for a closer look

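Hist3h2ba differed between genotypes in opposite directions at the 2 stages: it had 43 counts in wild-type and 81 in Htt-null ESC, a log2 ratio of 1.29, and 1109 and 577 counts in the RA-DIFF libraries labelled wild type and Htt-null, a ratio of -0.75. The difference between the 2 ratios is -2.04, and with 1 library per condition it was not tested. With the RA-DIFF labels exchanged both ratios would be positive.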

How the results depend on the processing

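The direction of the stage and genotype differences in summed counts was kept under other scalings, while the counts of members past 0.75 log2 moved with the filter. Comparisons are named A (RA-DIFF over ESC, labelled wild type: 5 higher, 7 lower, summed ratio -0.40), B (the same, labelled Htt-null: 4, 7 and -0.48), C (Htt-null over wild type in ESC: 3, 3 and -0.20) and D (the same in RA-DIFF cells, by the labels: 0, 6 and -0.28). With no filter on low counts the members higher and lower were 10 and 37 in A, 21 and 7 in C and 3 and 31 in D, and 48 were lower in B. With mean log2 CPM above 2 they were 3 and 2 in A and 1 and 0 in C, and 1 was lower in B and in D. With library size alone the summed ratio was -0.55 in B, -0.14 in C and -0.33 in D, and with DESeq2 size factors -0.45 in A. With protein-coding genes only it was -0.10 in A and 0.11 in C, and without Hist1h2aj, a setting chosen after seeing the data, -0.09 in A and 0.11 in C, so the direction in C turned. Without the member with the most counts it was -0.67 in A, -1.06 in B and -0.60 in D. Among members with at least 50% unique windows it was 0.97 in A, 0.41 in B and 0.27 in C, so the direction of the sum turned in each, and 2, 3 and 1 members were lower in A, B and C. A prior count of 10 left 3 members lower in D. Under the exact test of edgeR at an assumed dispersion of 0.1, 0 members were called higher in C and 3 lower in D. With the RA-DIFF labels exchanged the summed ratio was -0.68 in A, -0.20 in B and 0.28 in D, where 6 members were then higher and 0 lower. Of the named members' ratios, 70 of 70 kept their side of 0.75 or their value under library size alone, DESeq2 size factors and a prior count of 0.5, while 11 of 70 moved with a prior count of 10. With the RA-DIFF labels exchanged, 24 of the ratios compared moved and 11 stayed the same. Leaving out a replicate was not possible with 1 library per condition. No paired analysis was possible because the labels carry no replicate numbers. Depth limits the precision for the 51 of the 65 members that lay under the expression limit.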
